A study of Homo sapiens with 6 samples.

Results

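Peaks of the histone mark H3K27me3 and of its writer EZH2 were described on chromosomes 4, 13 and 18 of ACHN cells, a human renal cell carcinoma line. Every distinct peak listed on these 3 chromosomes was taken, with identical lines counted once, which gave 14155 of the 213202 distinct peaks on chromosomes 1 to 22 and X. The ZCCHC8-KO cells (titled sgZ8) contributed 4046 H3K27me3 and 1155 EZH2 peaks, and the ZCCHC8-WT cells (titled Ctrl) contributed 6951 H3K27me3 and 2003 EZH2 peaks. Each genotype and antibody had 1 ChIP library, called by the authors against the input library of its own genotype, so no difference between genotypes could be tested against replicates and no p-value is given. The labels give the genotype only; they do not say whether the KO cells were 1 clone or a pool, and peak lists hold no expression values with which the cell line or the loss of ZCCHC8 could be checked. The sources used here do not give read depths. Intervals are exact 95% Clopper-Pearson intervals, taken for a ratio from the KO share of both lists, and cover counting error only.

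EZH2 is the catalytic subunit of Polycomb repressive complex 2, which trimethylates histone H3 at silenced developmental genes and, more thinly, over long intergenic stretches. CpG islands, short segments rich in the dinucleotide CG, are the usual sites from which the complex acts in mammalian genomes. ZCCHC8 is a subunit of the nuclear exosome targeting complex, which hands unstable nuclear RNA to the exosome for decay. The label gene-poor held in the RefSeq annotation (GRCh38.p14), with 2.96 protein-coding genes per Mb on chromosome 13, 3.36 on chromosome 18 and 4.05 on chromosome 4, the 3 lowest densities of 23 chromosomes, against 7.03 per Mb over the others. Values per Mb use the span from the first to the last gene. On chromosome 13 this takes in chr13:1000001-16000000, which held no protein-coding gene and no peak of any list. That stretch lowers its values per Mb, and its order against chromosome 18 may rest on it. The 3 chromosomes together held 1378 of 19974 protein-coding genes, many of them separated by gene deserts.

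Few of the peaks lay on the promoters themselves. Of the promoters, 98.4% overlapped no peak here and 98.2% elsewhere, so this was shared with the other chromosomes. Of 1766 promoters of 1190 genes in the RefSeq table for these chromosomes (each from 250 bases before to 50 after a start, GRCh38.p14), 28 overlapped a peak of any list, and 0 promoters of the genes named by the rule given under processing overlapped peaks of all 4 lists. The sequences below were therefore chosen after their values were seen: the promoter most covered in each list, and 1 promoter of each gene that had one covered in more than 1 list. They show how the CG content of the covered promoters ranged from almost none to that of a CpG island. Each is printed 5′ to 3′ on the gene's strand, with every CG in capitals.
UCP1, chr4:140568912-140569211, minus strand: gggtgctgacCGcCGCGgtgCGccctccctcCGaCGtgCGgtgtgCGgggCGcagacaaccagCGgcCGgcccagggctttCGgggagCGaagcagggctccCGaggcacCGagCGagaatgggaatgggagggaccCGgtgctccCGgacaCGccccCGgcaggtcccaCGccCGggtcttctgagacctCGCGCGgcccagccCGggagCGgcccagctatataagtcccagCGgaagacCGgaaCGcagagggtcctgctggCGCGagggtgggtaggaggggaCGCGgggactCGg
DSPP, chr4:87608279-87608578, plus strand: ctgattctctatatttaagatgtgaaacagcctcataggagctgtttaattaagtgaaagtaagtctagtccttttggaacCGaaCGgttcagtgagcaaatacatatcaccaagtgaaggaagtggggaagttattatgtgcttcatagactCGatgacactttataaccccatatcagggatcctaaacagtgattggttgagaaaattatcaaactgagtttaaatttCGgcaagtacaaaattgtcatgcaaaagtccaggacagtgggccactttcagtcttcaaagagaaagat
AMER2, chr13:25172118-25172417, minus strand: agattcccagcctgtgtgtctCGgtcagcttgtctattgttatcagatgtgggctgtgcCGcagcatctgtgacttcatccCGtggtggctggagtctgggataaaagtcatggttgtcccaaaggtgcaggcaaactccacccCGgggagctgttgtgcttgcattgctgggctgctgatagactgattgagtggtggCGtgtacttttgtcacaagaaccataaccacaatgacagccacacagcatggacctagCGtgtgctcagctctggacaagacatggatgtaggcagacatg
AFM, chr4:73481495-73481794, plus strand: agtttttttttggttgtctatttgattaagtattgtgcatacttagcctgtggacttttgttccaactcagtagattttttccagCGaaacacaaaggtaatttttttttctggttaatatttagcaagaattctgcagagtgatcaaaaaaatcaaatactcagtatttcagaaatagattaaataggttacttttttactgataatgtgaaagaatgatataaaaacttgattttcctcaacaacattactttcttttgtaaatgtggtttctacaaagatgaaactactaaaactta
ASXL3, chr18:33577969-33578268, plus strand: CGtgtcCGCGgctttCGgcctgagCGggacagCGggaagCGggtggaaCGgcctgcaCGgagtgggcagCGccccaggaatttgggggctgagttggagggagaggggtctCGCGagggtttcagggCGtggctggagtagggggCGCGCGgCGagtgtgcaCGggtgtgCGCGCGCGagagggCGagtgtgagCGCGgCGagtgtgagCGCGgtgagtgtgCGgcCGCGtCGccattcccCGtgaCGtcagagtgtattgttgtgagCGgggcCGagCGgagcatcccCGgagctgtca
TMEM200C, chr18:5896125-5896424, minus strand: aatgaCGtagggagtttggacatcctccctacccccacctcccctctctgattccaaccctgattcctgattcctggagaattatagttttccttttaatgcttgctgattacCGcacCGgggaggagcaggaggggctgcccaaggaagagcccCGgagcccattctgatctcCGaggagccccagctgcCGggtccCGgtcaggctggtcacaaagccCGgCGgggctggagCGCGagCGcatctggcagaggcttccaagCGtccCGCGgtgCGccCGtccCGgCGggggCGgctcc

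The promoter of UCP1, the uncoupling protein of brown fat, held 35 CG in its 300 bases and was covered over 274 bases by a KO EZH2 peak and over 0 bases in the other 3 lists. The promoter of ASXL3, a Polycomb-associated protein, held 38 CG and was covered over 243 bases in the WT EZH2 list alone. At the other end, the promoter of AFM (afamin, a plasma protein of the albumin family) held 1 CG and that of DSPP (a dentin matrix protein) held 4; they were covered by H3K27me3, DSPP over 213 bases in KO and AFM over 196 bases in WT. Wider windows, 5 kb around each gene end, read differently. There H3K27me3 covered 9.87% in KO and 16.4% in WT at DSPP, and 1.16% and 0.980% at AFM. EZH2 covered 4.41% in KO and 5.12% in WT at ASXL3. AMER2, a regulator of Wnt signalling, was covered over 157 bases in KO and 12 bases in WT by EZH2, but its other, overlapping promoter (chr13:25172239-25172538) over 36 bases in KO and 133 bases in WT. The TMEM200C promoter was covered by EZH2 over 4 bases in KO and 85 bases in WT. The 11 promoters that overlapped a KO EZH2 peak had a median of 10 CG, and the 11 that overlapped a WT EZH2 peak a median of 22, the value of all 1766. The 4 promoters under KO H3K27me3 peaks had a median of 4.5 CG and the 5 under WT H3K27me3 peaks a median of 2. For scale, 70.1% of all promoters on these chromosomes held 10 or more CG, as did 70.1% on the other chromosomes. With so few promoters these medians describe the lists and were not compared further.

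Both antibodies had fewer peaks in KO than in WT on all 3 chromosomes. Chromosome 4 had 1614 H3K27me3 peaks in KO and 3250 in WT, a KO/WT ratio of 0.497 (0.468 to 0.527). Chromosome 13 had 1048 in KO and 1848 in WT, a ratio of 0.567 (0.525 to 0.612). Chromosome 18 had 1384 in KO and 1853 in WT, a ratio of 0.747 (0.696 to 0.801). The order of the ratios therefore did not follow the order of gene density: chromosomes 4 and 13 ranked 2 and 3 from the lowest of 23 chromosomes and chromosome 18 ranked 8. Together the 3 chromosomes had a ratio of 0.582 (0.560 to 0.605), against 0.764 (0.756 to 0.772) over the others, or 0.824 with chromosome 7, which ranked lowest, left out of the others. Peaks were sparse in both genotypes, at 10.5 H3K27me3 peaks per Mb in KO and 18.1 in WT, against 24.9 in KO and 32.6 in WT elsewhere.

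EZH2 differed less from the rest of the genome. Chromosome 4 had 628 peaks in KO and 1149 in WT (ratio 0.547), chromosome 13 had 267 and 439 (0.608), and chromosome 18 had 260 and 415 (0.627). The ratio over the 3 chromosomes was 0.577 (0.536 to 0.620), against 0.640 (0.628 to 0.652) elsewhere. The density was 3.0 EZH2 peaks per Mb in KO and 5.21 in WT, against 6.95 and 10.9 elsewhere.

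The KO lists were shorter genome-wide, and part of each ratio goes with that. When the longer WT list was shortened to the size of the KO list by its highest scores over all chromosomes, the H3K27me3 ratio was 0.925 on the 3 chromosomes, against 1.01 elsewhere. The EZH2 ratio was then 1.17, against 0.991 elsewhere, so the lower EZH2 peak number in KO turned round. Before shortening, 105 KO and 15 WT EZH2 peaks lay in 5 stretches around centromeres and chromosome ends, described further on. The shortened EZH2 ratio without these stretches was not computed. Scores are the authors' own values per peak, and the sources used here do not define them; the lowest is 4 in KO and 5 in WT, so a threshold may not mean the same in both genotypes. The peaks of these chromosomes scored low within their lists: 0.618% of KO H3K27me3 peaks had a score of 10 or more, against 3.69% elsewhere, and 5.32% of WT peaks did, against 16.5% elsewhere. Covered length gave the same picture as peak number, with 1176 kb of H3K27me3 in KO and 1998 kb in WT (ratio 0.589, against 0.741 elsewhere) and an EZH2 ratio of 0.634 (0.710 elsewhere). The median H3K27me3 peak was 244 bp wide in KO and 246 bp in WT, and the median EZH2 peak 216 bp in KO and 199 bp in WT. EZH2 peaks of 500 bp or more made up 3.46% of the KO and 1.9% of the WT list, and among EZH2 peaks of 250 bp or more the number ratio was 0.806, against 0.848 elsewhere.

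**Figure D1:**
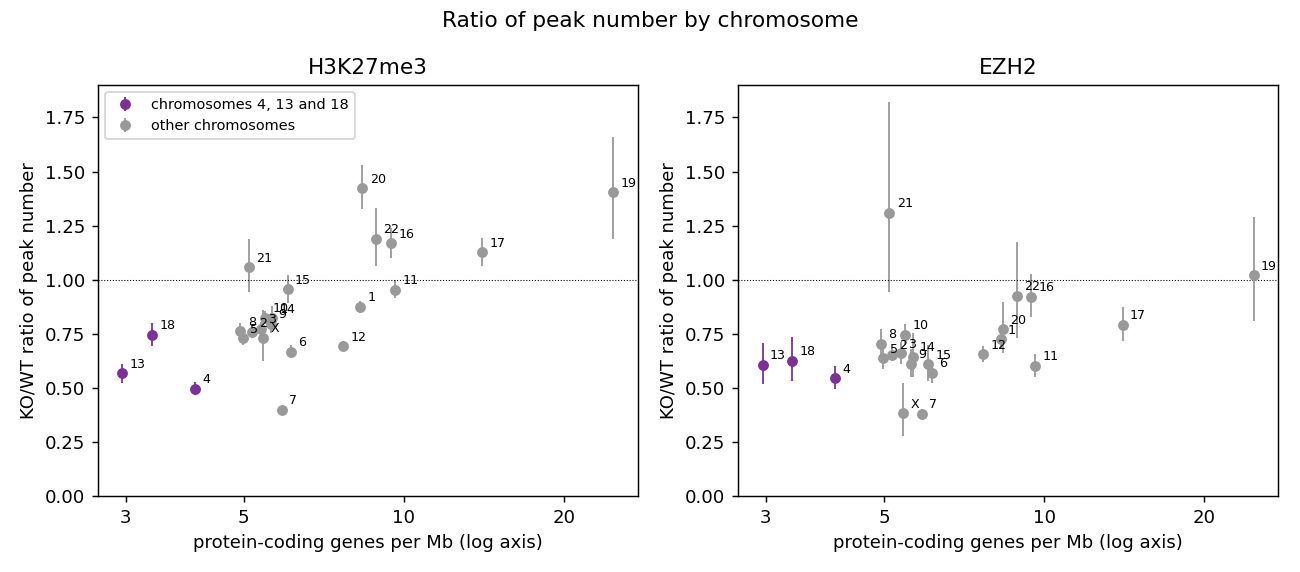
KO/WT ratio of peak number (vertical axis) against protein-coding genes per Mb (horizontal log axis) for chromosomes 1 to 22 and X, with H3K27me3 on the left and EZH2 on the right; bars are exact 95% intervals for counting error and the dotted line marks equal numbers. Chromosomes 4, 13 and 18 (purple) lie at the left, with H3K27me3 ratios of 0.497, 0.567 and 0.747, while chromosome 7 is lower than all 3 for both antibodies.

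In 1-Mb bins, the difference was uneven along the chromosomes. A bin with 10 or more peaks in KO and WT together was called lower where the ratio of (KO peaks + 1) to (WT peaks + 1) was 0.5 or less, and higher where it was 2 or more. For H3K27me3, 109 of 264 such bins (41.3%) were called lower, against a background of 25.7% over chromosomes 1 to 22 and X, and 4 (1.52%) were called higher, against 3.35%. Chromosome 4 had the largest share of lower bins, 71 of 133 (53.4%), ahead of chromosome 13 with 25 of 68 (36.8%) and chromosome 18 with 13 of 63 (20.6%), which was under the background. In 31 of the 264 bins the KO list had 0 peaks, and in 0 of them the WT list had 0, against 54 and 1 of 2266 over chromosomes 1 to 22 and X; a bin with 0 KO peaks entered through its WT peaks alone. Dividing by the ratio over chromosomes 1 to 22 and X gave 80 lower and 9 higher bins. With the WT list shortened to equal size, 51 of 226 bins (22.6%) were lower and 33 (14.6%) higher, against 15.7% and 13.6% over chromosomes 1 to 22 and X. For EZH2, 47 of 114 bins (41.2%) were lower, near the background of 37.3%, and 5 (4.39%) were higher, against 3.98%. After dividing by the ratio over all chromosomes 20 EZH2 bins were lower and 12 higher. At equal list size 2 of 63 EZH2 bins (3.17%) were lower and 12 (19.05%) higher. Over chromosomes 1 to 22 and X at that list size, 15.4% of EZH2 bins were lower and 13.4% higher.

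**Figure D2:**
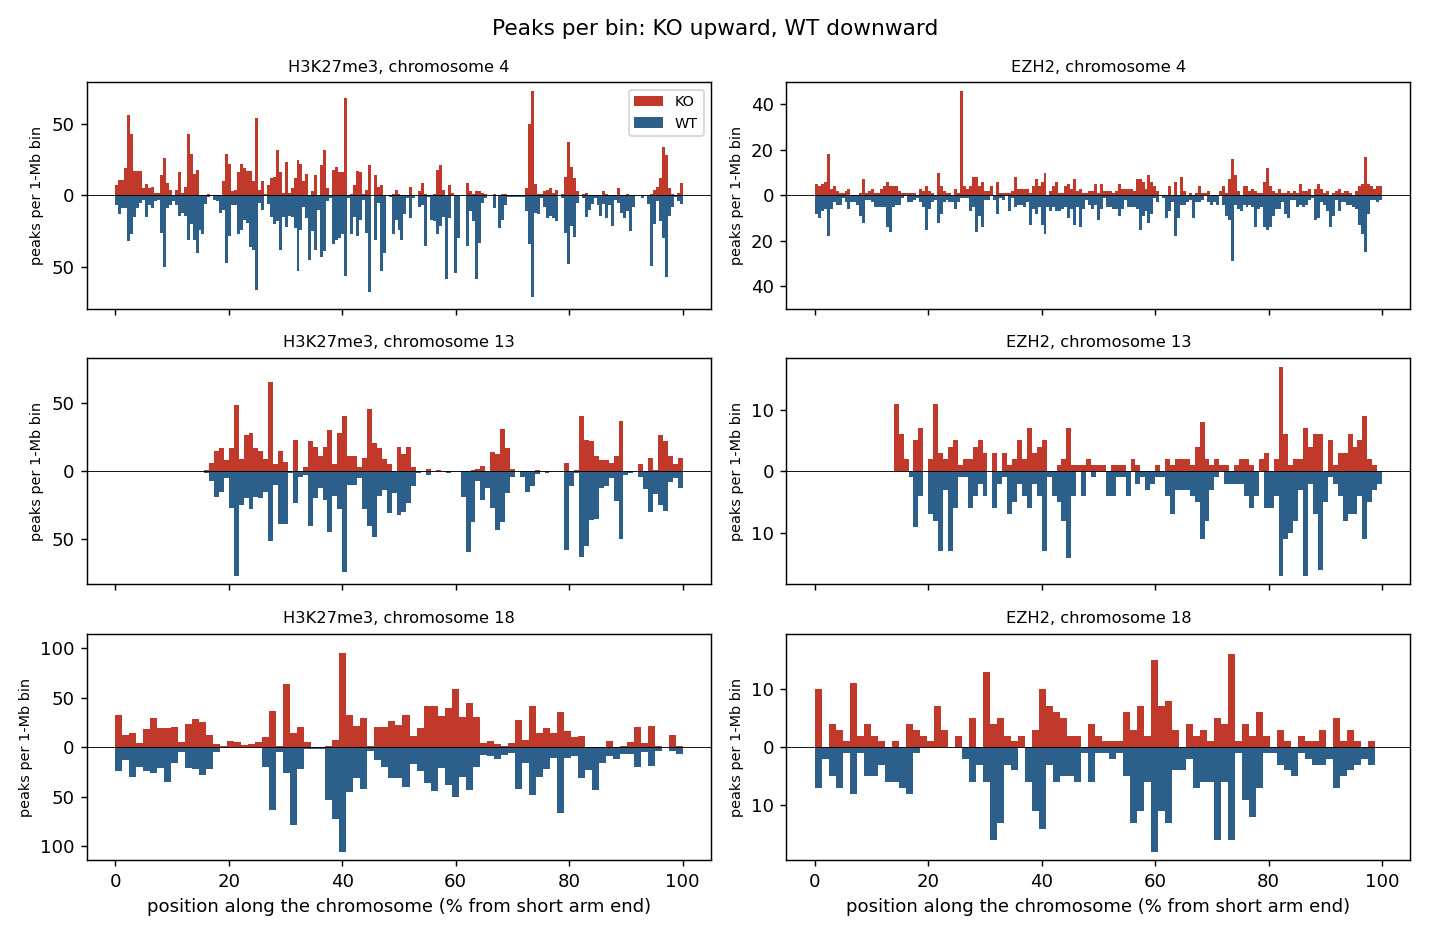
Peaks per 1-Mb bin along chromosomes 4, 13 and 18 (horizontal axis, percent of the chromosome from the short arm end), with KO upward and WT downward, H3K27me3 on the left and EZH2 on the right. H3K27me3 in WT continues through long parts of chromosomes 4 and 13 where the KO bars are at or near 0, while on chromosome 18 the bars are paired along most of the long arm; the tall KO bar of EZH2 on chromosome 4 is the bin with 46 KO peaks and 1 WT peak by the centromere.

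The KO/WT ratio of H3K27me3 also differed with the number of genes in a bin. In 99 bins with 0 protein-coding genes there were 356 peaks in KO and 1072 in WT, a ratio of 0.332 (0.294 to 0.375), against 0.682 (0.657 to 0.708) in such bins elsewhere. By chromosome it was 0.231 on chromosome 4 and 0.190 on chromosome 13, but 0.714 (0.585 to 0.871) on chromosome 18. In bins with 1 to 2 genes the ratio was 0.419, against 0.608 elsewhere. In bins with 3 to 5 genes it was 0.666 (0.621 to 0.713), against 0.690 (0.676 to 0.704), so the intervals overlapped, and with 6 to 9 genes 0.766 against 0.821, where they overlapped too. In the 24 bins with 10 or more genes it was 0.606 (0.532 to 0.690), against 0.961 elsewhere. With the WT list shortened to equal size, the bins with 0 genes had a ratio of 0.603, against 1.01 elsewhere, and those with 1 to 2 genes 0.716, against 0.876. Giving each class of bins the ratio it had elsewhere would put the 3 chromosomes at 0.728, beside 0.582 as measured and 0.764 elsewhere.

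In bins with 0 genes there were 147 EZH2 peaks in KO and 179 in WT (0.821, 0.656 to 1.03), against 1.00 elsewhere, and in the other classes the ratio was between 0.531 and 0.573. The class with 0 genes includes stretches around centromeres that are described further on; without these and the chromosome ends it had 109 EZH2 peaks in KO and 178 in WT (0.612, 0.478 to 0.782), and the other classes had ratios of 0.446 to 0.551. For H3K27me3 the class with 0 genes was then at 0.310. Stretches were left out on chromosomes 4, 13 and 18 only, so these values have no counterpart elsewhere. Across bins within a chromosome, Spearman's rho between gene number and the log2 KO/WT ratio of H3K27me3 was 0.360 on chromosome 4, 0.460 on chromosome 13 and 0.194 on chromosome 18, and for EZH2 0.000942, -0.0895 and -0.0295. These correlations describe bins of the same libraries, which share depth and base composition.

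Distance from genes separated chromosome 18 from chromosomes 4 and 13. More than 500 kb from any protein-coding gene, chromosome 4 had 60 H3K27me3 peaks in KO and 335 in WT, a ratio of 0.179 (0.134 to 0.236). Chromosome 13 had 32 in KO and 106 in WT there, a ratio of 0.302 (0.197 to 0.452). Chromosome 18 had 125 in KO and 157 in WT, a ratio of 0.796 (0.624 to 1.01). Deep desert peaks were thus scarcer in KO on chromosomes 4 and 13 than on chromosome 18; without the stretches around centromeres and chromosome ends the ratios were 0.165, 0.295 and 0.682 on chromosomes 4, 13 and 18. Inside genes the 3 chromosomes together had a ratio of 0.583 (0.545 to 0.624), against 0.748 elsewhere, and beyond 500 kb 0.363 (0.309 to 0.425), against 0.708 (0.675 to 0.743). For EZH2 beyond 500 kb there were 123 peaks in KO and 122 in WT, a ratio of 1.01 (0.778 to 1.31), against 1.23 (1.14 to 1.33) elsewhere. Without the same stretches there were 75 in KO and 119 in WT, a ratio of 0.630 (0.466 to 0.848), and on chromosome 13 it was 0.621 in place of 1.28. No stretches were left out on the other chromosomes, so 0.630 is not comparable with 1.23. Inside genes the ratio was 0.525 (0.465 to 0.591).

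**Figure D3:**
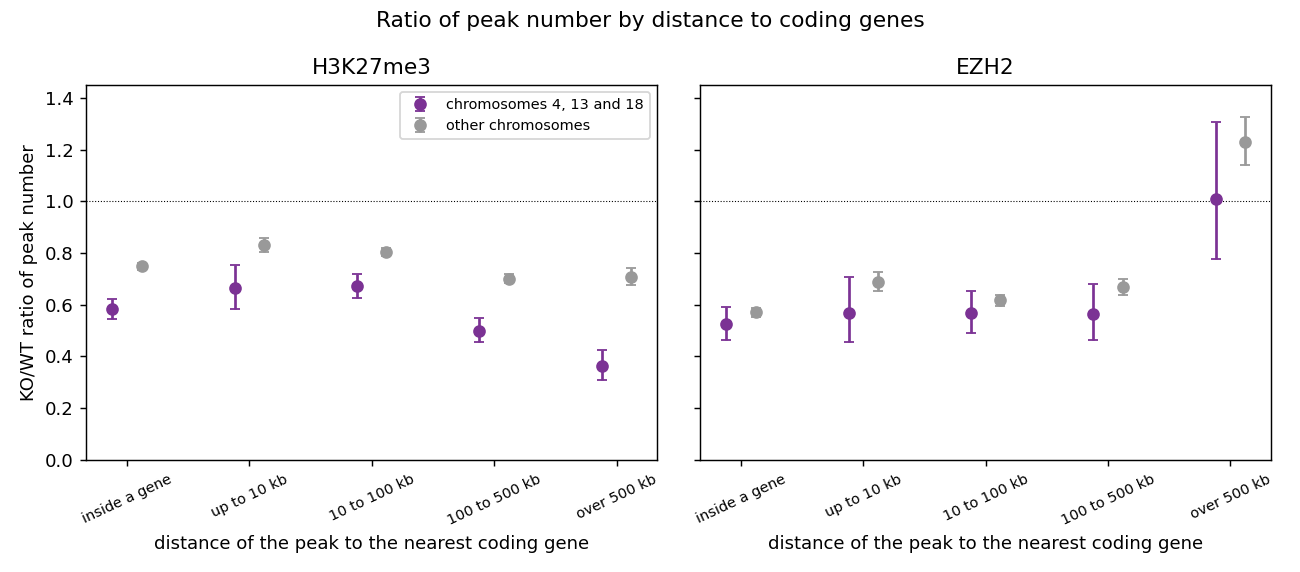
KO/WT ratio of peak number (vertical axis) by distance of the peak to the nearest protein-coding gene (horizontal axis), for chromosomes 4, 13 and 18 (purple) and the others (grey); bars are exact 95% intervals for counting error. For H3K27me3 the purple points go down to 0.363 beyond 500 kb while the grey point there is at 0.708. For EZH2 both colours are highest there, at 1.01 and 1.23. Without the stretches around centromeres and chromosome ends the purple value was 0.630. No stretches were left out of the grey values, so 0.630 is not comparable with 1.23.

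Long stretches had almost no H3K27me3 peak in KO. Runs of at least 5 neighbouring bins with at most 5 KO peaks each and more than 5 WT peaks in all numbered 9 and took up 110 of 387 bins (28.4%), against 14.1% of bins elsewhere; this definition was made after the values were seen, it sets the KO number low by choice, and the runs get no test. They held 93 H3K27me3 peaks in KO and 1102 in WT, and 190 EZH2 peaks in KO and 457 in WT. The same definition with the genotypes exchanged gave 1 run, chr18:14000001-21000000 around the centromere, with 25 peaks in KO and 6 in WT. It took up 1.81% of bins, against 7.61% in 16 such runs elsewhere. Chromosome 18 had 0 runs low in KO, chromosome 4 had 6 and chromosome 13 had 3.

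The widest run, chr4:155000001-182000000, had 21 H3K27me3 peaks in KO and 268 in WT over 68 genes. Genes are named here to place each run, and their own windows, 5 kb around each gene end, can differ from it. NPY2R and NPY1R (neuropeptide Y receptors) and GLRB (a glycine receptor subunit) had 0% of H3K27me3 cover in both genotypes. GRIA2 (a glutamate receptor subunit) had 2.25% in KO and 1.77% in WT. The run chr4:119000001-139000000 had 21 in KO and 200 in WT and held FGF2, a growth factor, and IL2 and IL21, both cytokines. FGF2 and IL2 had 0% cover in both genotypes, and IL21 had 0.965% in KO and 0% in WT. The run chr13:60000001-76000000 had 13 in KO and 171 in WT, with PCDH9 and PCDH20 (protocadherins), DACH1 and KLF5 (transcription factors). PCDH20 and KLF5 had 0% cover in both genotypes, PCDH9 0% in KO and 1.07% in WT, and DACH1 0% in KO and 8.68% in WT. These 3 runs were 27, 20 and 16 Mb long. The run chr4:90000001-99000000, with UNC5C, a netrin receptor, had 6 peaks in KO and 155 in WT. The run chr4:28000001-36000000, a desert around the protocadherin PCDH7, had 1 in KO and 77 in WT, while EZH2 had 10 in KO and 17 in WT there. The run chr4:113000001-118000000, with NDST4, had 2 in KO and 84 in WT, against 12 EZH2 peaks in KO and 13 in WT, so in that run EZH2 peak number was nearly the same in both genotypes. The remaining 3 runs had 3 to 21 H3K27me3 peaks in KO and 21 to 89 in WT.

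The bin with the largest deficit was chr18:31000001-32000000, which holds the desmosomal cadherins, the adhesion proteins of epithelial junctions, and TTR, a carrier of thyroid hormone and retinol. It had 7 H3K27me3 peaks in KO and 73 in WT, and 3 EZH2 peaks in KO and 11 in WT. The bin of ZNF521, a zinc finger transcription factor (chr18:25000001-26000000), had 14 H3K27me3 peaks in KO and 79 in WT. The bin of DACH1 (chr13:71000001-72000000) had 0 in KO and 59 in WT, and the bin chr4:111000001-112000000, with 0 protein-coding genes, had 0 in KO and 58 in WT. The largest excess was next to the ZNF521 bin, at chr18:24000001-25000000, with 64 H3K27me3 peaks in KO and 26 in WT and 13 EZH2 peaks in KO and 6 in WT. The bin of the homeobox gene MSX1 (chr4:4000001-5000000) had 56 H3K27me3 peaks in KO and 32 in WT, with 18 EZH2 peaks in each. The densest WT bin of each chromosome had 95 peaks in KO and 106 in WT on chromosome 18 (chr18:32000001-33000000), 49 in KO and 77 in WT on chromosome 13 (chr13:24000001-25000000), and 73 in KO and 71 in WT on chromosome 4 (chr4:140000001-141000000, with UCP1 and MAML3, a Notch coactivator). Numbers were thus close in the dense bins of chromosomes 4 and 18 and not in that of chromosome 13, nor in the dense ZNF521 and desmosomal bins. For EZH2, the largest deficit was at chr4:173000001-174000000, with the heart and limb factor HAND2, where KO had 0 EZH2 and 0 H3K27me3 peaks and WT had 14 and 25. The bin of the neural factor SOX21 (chr13:94000001-95000000) had 17 EZH2 peaks in KO and 17 in WT.

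Around centromeres and at chromosome ends, EZH2 peaks were more numerous in KO than in WT and, in some stretches, scored high. In 5 such stretches, chosen after their values were seen, KO had 105 EZH2 peaks and WT had 15, and 29 of the 30 KO EZH2 peaks on these chromosomes with a score of 20 or more lay there. At chr4:49000001-52000000 there were 53 EZH2 peaks in KO (highest score 89) and 3 in WT (highest score 9). This stretch held 21 of the 29. At chr13:16000001-19000000 there were 19 in KO (highest score 54, with 1 at 20 or more) and 0 in WT. At chr18:15000001-21000000 there were 15 in KO and 0 in WT. Those 15 had a highest score of 8 and a median of 5, the median of all KO EZH2 peaks on these chromosomes. Around all 3 centromeres, then, nearly every EZH2 peak was from the KO list. The end of the long arm of chromosome 4, with the DUX4 repeats, had 8 peaks in KO and 5 in WT, with highest scores of 245 in KO and 27 in WT. The end of the short arm of chromosome 18 had 10 in KO and 7 in WT, with highest scores of 290 and 8. H3K27me3 showed less of this, with 85 peaks in KO and 52 in WT in the 5 stretches together. Its highest score was at the same place in both genotypes, chr4:49709216-49711951 in KO (328) and chr4:49709216-49711949 in WT (423). Centromeres and the DUX4 array are made largely of near-identical repeat copies, so the position of peaks there is uncertain, while the stretch at the end of chromosome 18 also holds 12 protein-coding genes. The sources used here do not say how reads with several matches were treated, and its part in the result was not tested. Without the 5 stretches the EZH2 ratio was 0.528.

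Fewer peaks were found at the same place in both genotypes than elsewhere. Of KO H3K27me3 peaks, 11% overlapped a WT peak, with 1 bp in common taken as enough, against 22% elsewhere. Of WT H3K27me3 peaks, 450 of 6951 (6.47%, 5.91 to 7.08) met a KO peak, against 16.6% (16.4 to 16.9) on the other chromosomes. This WT share was 5.08% on chromosome 4, 7.95% on chromosome 13 and 7.45% on chromosome 18. For EZH2, 57 of 1155 KO peaks (4.94%, 3.76 to 6.35) overlapped a WT peak, against 8.16% elsewhere, and 55 of 2003 WT peaks (2.75%, 2.08 to 3.56) met a KO peak, against 5.29% elsewhere. At the shares that peaks of the same score had elsewhere, 17.8% of the KO and 13.3% of the WT H3K27me3 peaks would have been shared, and 6.6% of the KO and 3.76% of the WT EZH2 peaks. The shares of both antibodies were thus also lower at matched score. They were lower with width matched too (19.5% of KO and 14.1% of WT H3K27me3 peaks, and 7.18% of KO and 4.45% of WT EZH2 peaks). Peaks were also sparser here, at 10.5 H3K27me3 peaks per Mb in KO and 18.1 in WT, against 24.9 and 32.6 elsewhere. Matching score or width leaves this density unmatched, and its part in the shares of either antibody was not tested. At a score of 10 to 14, 44 of 362 WT H3K27me3 peaks (12.2%) were shared, against 31.3% elsewhere, while 7 of the 8 with a score of 15 or more were shared. Of the 40 KO EZH2 peaks with a score of 15 or more, 0 were shared, which allows up to 8.81%, against 23.3% elsewhere. At least 29 of these 40 peaks came from the 5 stretches around centromeres and chromosome ends. The value of 0 therefore mainly describes those stretches, where WT had few EZH2 peaks and positions are partly uncertain. Sharing of high-scoring peaks without the stretches was not tested.

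**Figure D4:**
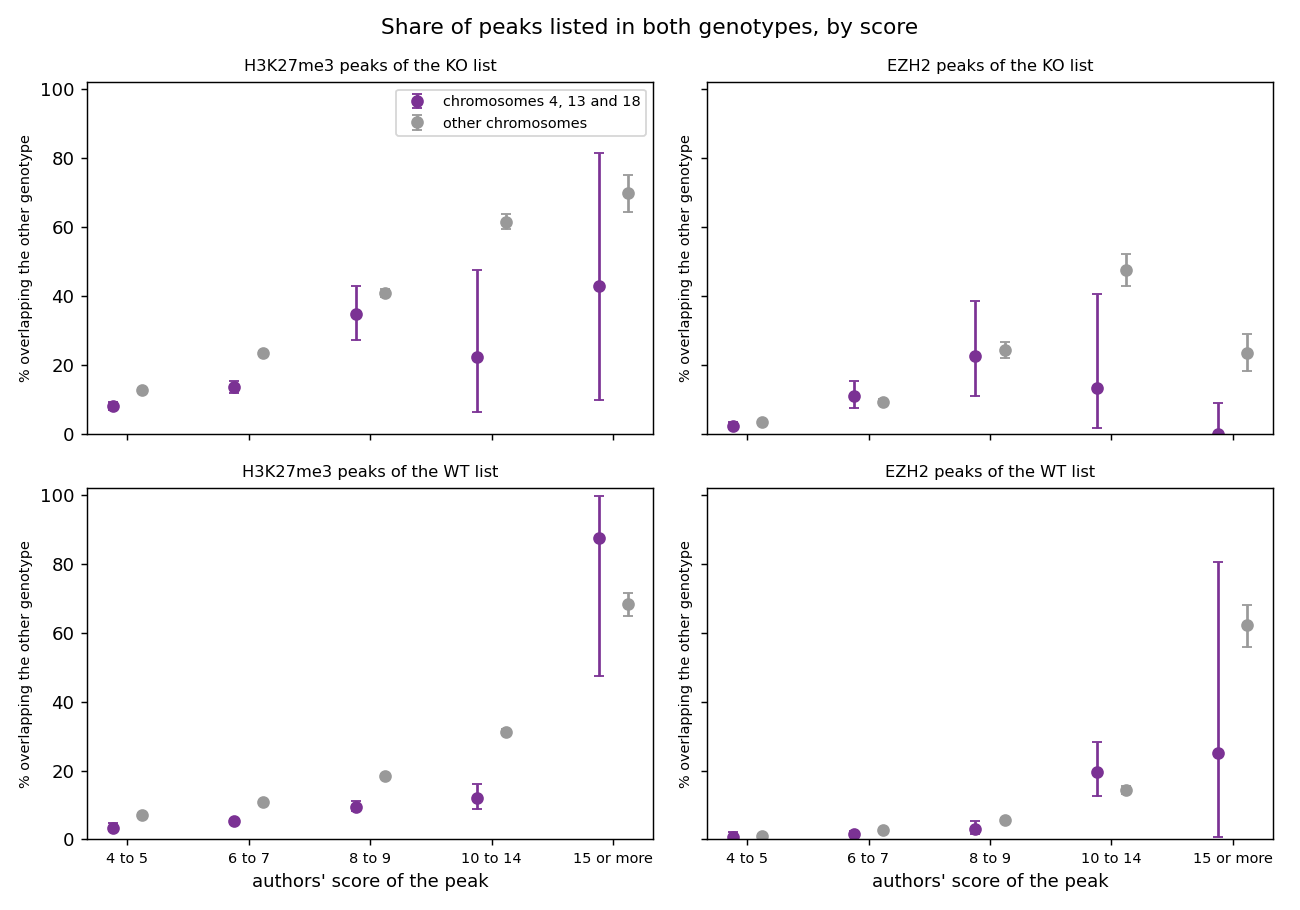
Percent of peaks that overlap a peak of the other genotype (vertical axis) by the authors' score (horizontal axis), for chromosomes 4, 13 and 18 (purple) and the others (grey); KO lists are in the upper row, WT lists in the lower, and bars are exact 95% intervals for counting error. For H3K27me3 the purple points lie under the grey ones in each class below a score of 15, as with 12.2% against 31.3% for WT peaks of score 10 to 14.

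EZH2 and H3K27me3 peaks coincided less often here as well. In KO, 81 of 1155 EZH2 peaks (7.01%, 5.61 to 8.64) overlapped an H3K27me3 peak of the same genotype, against 19.8% elsewhere, and in WT 110 of 2003 (5.49%, 4.53 to 6.58) did, against 14.6% elsewhere. The intervals of KO and WT overlapped. H3K27me3 peaks are also sparser on these chromosomes, and the part of their density in this share was not tested. Within 5 kb of an H3K27me3 peak lay 33.7% of the KO and 34.1% of the WT EZH2 peaks, against 58.8% and 54.4% elsewhere. A place with all 4 lists was rare: 9 KO EZH2 peaks overlapped peaks of the other 3 lists. They lay inside or up to 46460 bp from TMEM200C, AMER2, PPARGC1A (a coactivator of mitochondrial genes), HELT and NKX1-1 (neural and homeobox transcription factors), ADRA2C (an adrenergic receptor), GATA6 (a factor of endoderm and heart), TPP2 (a peptidase) and LOC124900752. Of these the peak in TMEM200C, chr18:5893560-5894188, was 629 bp wide and that in PPARGC1A, chr4:24468929-24469435, 507 bp.

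Genes were read by the share of a window, 5 kb around each gene end, that peaks covered, and a gene with any peak there was called marked; the annotation used gives no strand, so both ends count. For H3K27me3, 231 of 1378 genes (16.8%) were marked in KO, against 17.3% of all genes, and 306 (22.2%) in WT, against 19.6% of all genes. Of these, 146 (47.7%, 42.0 to 53.5) kept a KO peak, against 61.1% elsewhere. For EZH2, 115 genes (8.35%) were marked in KO, against 9.93% of all genes, and 222 (16.1%) in WT, against 15.1%; 57 of these 222 (25.7%, 20.1 to 31.9) kept a KO peak, against 36.8% elsewhere. The share of marked genes was therefore near that of all genes in each list, while the share of WT-marked genes also marked in KO was lower than elsewhere.

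Few genes differed by 10 or more percentage points of their window. For H3K27me3, 4 genes were lower in KO (0.290%, against 0.741% of all genes) and 0 were higher (against 0.205%); for EZH2, 1 was lower (0.0726%, against 0.15%) and 1 higher (against 0.0751%). ZNF521 (chr18:25061924-25352166) had 1.53% of its window covered by H3K27me3 in KO and 14.1% in WT. NDST4, an enzyme of heparan sulphate synthesis (chr4:114827763-115113620), had 0% in KO and 12.6% in WT. AFP, the fetal plasma protein, had 0% in KO and 11.3% in WT, and DSC2, a desmosomal cadherin, 0% in KO and 11% in WT. In 3 of these 4 genes the KO list had no peak in the window. DSC1, EXOC1L, DACH1 and NEUROG2 came next, with 0%, 0%, 0% and 7.07% in KO and 9.87%, 9.51%, 8.68% and 15.5% in WT. The largest excesses were in OTOP1, a proton channel, with 7.67% in KO and 0% in WT, and SERTM1, with 8.38% in KO and 0.855% in WT. GRP, the gastrin-releasing peptide, had 13.7% in KO and 7.54% in WT. The other 5 of the 8 genes with the largest excess were TMEM200C, FRG2, LOC124900752, LRRC30 and CFAP53, with 5.76% to 11.3% in KO and 0% to 4.50% in WT. Genes well covered in both included SLAIN1, a microtubule-binding protein, with 11.6% in KO and 11.4% in WT, and CPLX4, a complexin of retinal synapses, with 10.2% in KO and 9.76% in WT.

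For EZH2 the largest deficit was at GSX2, a homeobox factor of the forebrain (chr4:54100163-54102498), with 8.62% in KO and 34.4% in WT. SOX21 had 4.06% in KO and 13.5% in WT, and NEUROG2, a factor that starts neuronal differentiation, 8.76% in KO and 14.1% in WT. ATOH1, PDX1 and GSX1, transcription factors of the cerebellum and inner ear, the pancreas and the hypothalamus, had 0% in KO and 6.24%, 4.99% and 4.92% in WT. UNC5C had 0% in KO and 4.91% in WT. At SOX21, NEUROG2 and GSX2 the KO list still held EZH2 peaks, and at ATOH1, PDX1, GSX1 and UNC5C it held none. On the side of excess, HELT had 6.0% in KO and 0% in WT, and FLT1, a receptor of vascular endothelial growth factor, 4.93% in KO and 0% in WT. LOC124905450, with 10.7% in KO and 0% in WT, and DUX4, with 4.21% in KO and 0% in WT, lie in the stretches at chromosome ends, and DUX4 is a multicopy array whose values are uncertain. UCP1 was covered alike, with 9.92% in KO and 10.9% in WT, as was LIMCH1, an actomyosin regulator, with 7.98% in KO and 7.85% in WT.

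**Figure D5:**
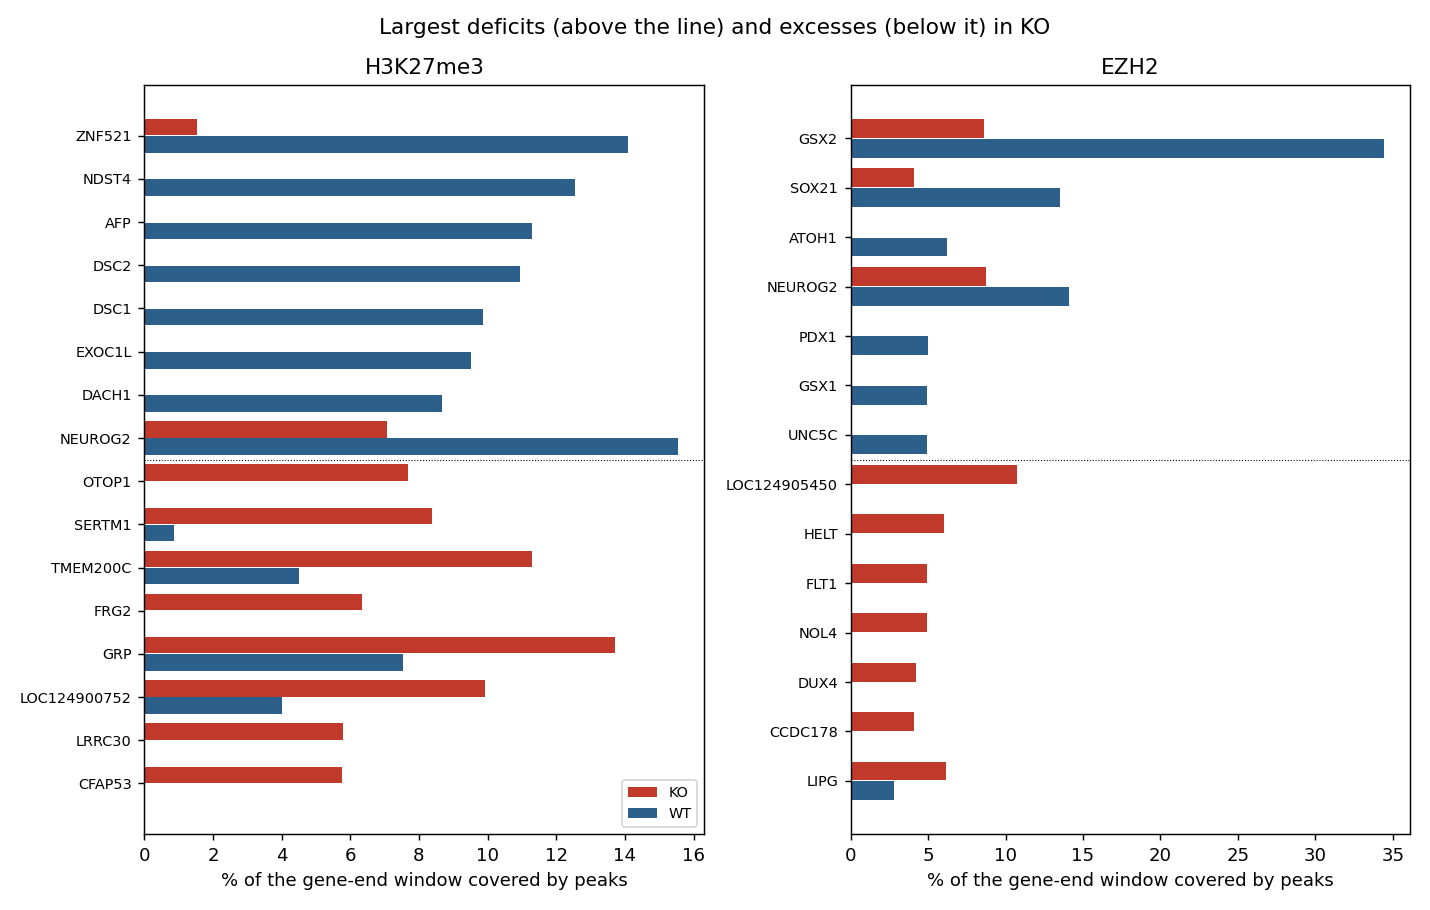
Percent of the gene-end window covered by peaks (horizontal axis) for genes with the largest deficit (above the dotted line) and the largest excess (below it) in KO, 8 of each for H3K27me3 on the left and 7 of each for EZH2 on the right; KO is in red and WT in blue. Among the H3K27me3 deficits only ZNF521 and NEUROG2 have a red bar, and the GSX2 bars for EZH2 are at 8.62% in KO and 34.4% in WT.

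Gene groups were read in the same windows, and each count of marked members stands against a share over all genes of 17.3% in KO and 19.6% in WT for H3K27me3, and of 9.93% in KO and 15.1% in WT for EZH2. The median difference between KO and WT in covered share was 0 over all genes, and it was 0 in every group but the desmosomal cadherins and the connexins. Among 33 developmental transcription factors, H3K27me3 marked 12 in KO and 15 in WT and EZH2 marked 10 in KO and 14 in WT, all above those shares, with a mean EZH2 cover of 1.23% in KO and 3.03% in WT. EZH2 cover was larger in WT in 12 of them and larger in KO in 4, one of these 4 being MSX1 with 6.34% in KO and 3.03% in WT. POU4F1, a factor of sensory neurons, was under H3K27me3 over 10.2% of its window in KO and 5.10% in WT. Of 35 signalling genes, H3K27me3 marked 11 in each genotype and EZH2 4 in KO and 9 in WT; FGF9, a growth factor, had EZH2 over 5.04% in KO and 5.55% in WT. Of 27 neurotransmitter receptors and channels, H3K27me3 marked 7 in KO and 13 in WT. Here GABRB1, a GABA receptor subunit, had 5.53% in KO and 1.33% in WT, while its neighbour GABRA4 had 2.09% in KO and 6.85% in WT.

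The groups of adhesion genes are small, and their counts are read against the same shares over all genes (for H3K27me3 17.3% in KO and 19.6% in WT). Of 7 desmosomal cadherins, 0 were under H3K27me3 in KO and 4 in WT (DSC1, DSC2, DSC3 and DSG1), with a mean cover of 0% in KO and 4.4% in WT and a median difference of -3.59 points. Their windows lie side by side in 1 cluster, so they are not independent. Of 14 other cadherins and protocadherins, 1 was marked in KO (PCDH17, with 3.07% in KO and 4.60% in WT) and 4 in WT. Of 19 axon guidance and synaptic adhesion genes, H3K27me3 marked 4 in KO and 8 in WT and EZH2 3 in KO and 8 in WT; the guidance receptor EPHA5 had 0% of H3K27me3 in KO and 7.0% in WT.

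The remaining groups are read against the same shares, and in groups of so few genes a count near them is no result about the group. Of 23 genes of the albumin family, caseins, saliva and tooth matrix, H3K27me3 marked 12 in KO and 11 in WT, so the number was close while single members differed: ALB had 5.70% in KO and 6.17% in WT, next to AFP with 0% in KO and 11.3% in WT. Of 18 UGT2 and alcohol dehydrogenase genes, enzymes of conjugation and alcohol oxidation, 0 were marked in KO and 4 in WT, with UGT2A2 at 0% in KO and 5.30% in WT. Several UGT2 genes are near-identical copies, which makes their cover uncertain. Of 19 innate immune and coagulation genes, H3K27me3 marked 3 in KO, near the share over all genes, and 8 in WT, and EZH2 marked 0 in KO and 7 in WT; CD38, an ectoenzyme of lymphocytes, had 0% of H3K27me3 in KO and 6.19% in WT. Of 10 clade B serpins, H3K27me3 marked 6 in each genotype, with SERPINB2 at 5.73% in KO and 0% in WT and SERPINB7 at 0% in KO and 7.33% in WT. Of 13 CXC chemokines, 1 was marked in KO and 0 in WT. The 3 connexins had 2 marked in KO and 3 in WT (median difference -1.23 points), with GJA3 at 2.19% in KO and 5.44% in WT. Of 16 kidney genes, H3K27me3 marked 7 in KO and 6 in WT, with the water channel AQP4 at 3.45% in KO and 0% in WT. Of 34 housekeeping genes, H3K27me3 marked 0 in both genotypes and EZH2 0 in KO and 2 in WT.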

How the data were processed

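Chromatin of ACHN cells was fixed with formaldehyde, sonicated and precipitated, and sequenced in read pairs, per the labels' protocols. A peak list existed for each of 4 ChIP libraries among the 6 samples; the 2 inputs served only as their controls. The authors trimmed reads with cutadapt 1.9.3 and aligned them with Bowtie2 2.2.4 to hg38, per the submitters' processing notes; the sources used here name neither the peak caller nor read depths.

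The deposited lists have 6 columns and no header. Coordinates were taken as 1-based, because the deposited peak length is the end less the start plus 1. The deposited score of each peak is the authors', used only to rank or filter peaks; peak names carry a p threshold of 1e-3. Peaks stood on up to 81 identical lines and were counted once.

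Peaks were put in 1-Mb bins by midpoint. Numbers, covered length, overlaps and gene-end windows (5 kb, merged where they met) were computed in Python 3.11.15 (SciPy 1.17.1, pandas 2.3.3, NumPy 2.4.6) and drawn with matplotlib 3.10.9. Gene names, positions and promoters came from RefSeq tables (GRCh38.p14); 279 of 280 symbols in 15 gene lists matched. The routines were checked on the WT peak lists after the peaks of picked genes and bins had been taken out. That check covers the code only, since it holds no noise and no difference in depth. With 1 library per group no test was made.

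The rule for names took, per antibody, the 5 bins with the largest deficit and excess, the densest bin per chromosome and list, the 8 genes with the largest deficit and excess, the 5 best covered in both genotypes, the 2 best covered of each gene list and the 3 widest domains per list; a selection is printed, and some genes that the rule names are not reported here. List members beyond these, the runs, the stretches at centromeres and chromosome ends, genes in runs and the printed promoters were chosen after their values were seen. The members and lists were chosen with earlier results of these data known.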

Additional observations from a re-analysis of the deposited data

How the results depend on the processing

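With 1 library per group, leaving out a replicate was not an option. No paired analysis was possible because the groups share only replicate number 1 and no result comes from a test. Of the alternatives, 29 left the value within its counting interval or count within 1.5 times, 45 moved it and 2 reversed it; causes were not tested except where the construction gives them. The shortened lists in bins, the 5 stretches at centromeres and chromosome ends left out and windows at transcription starts were chosen after seeing the data.

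Keeping peaks that scored 7 or more gave peak number ratios of 0.149 for H3K27me3 and 0.154 for EZH2 (elsewhere 0.317 and 0.208) and covered length ratios of 0.179 and 0.223, with a median H3K27me3 score of 5 in KO and 7 in WT. Shortening the longer list to equal size gave number ratios of 0.925 for H3K27me3 and 1.17 for EZH2, and length ratios of 0.864 and 1.18, so both EZH2 directions reversed. The stretches at centromeres and chromosome ends were kept in for this setting. Without chromosome 4 the H3K27me3 number and length ratios were 0.657 and 0.671, and without chromosome 18 0.522 and 0.527. EZH2 peaks of 250 bp or wider gave 0.806 and 0.815 (number ratio elsewhere 0.848), and leaving out these stretches gave 0.528 and 0.571.

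The share of WT H3K27me3 peaks shared with KO was 3.24% where 50% of the peak had to be covered, 18.6% within 1 kb and 2.36% with scores of 7 or more. The EZH2 share was 1.60%, 5.74% and 1.84% under the same settings, and 6.07% for peaks of 250 bp or wider. EZH2 peaks on H3K27me3 were 3.46% in KO and 3.39% in WT at 50% cover, and 16.5% in KO and 16.3% in WT within 1 kb.

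Of H3K27me3 bins, 69 of 195 were lower with 20 peaks per bin (fewer bins enter), 163 of 174 with scores of 7 or more and 51 of 226 with equal list size; higher bins numbered 1 at 3-fold, 9 after scaling by the ratio over all chromosomes, 13 in 500-kb bins, 0 with scores of 7 or more and 33 with equal list size. Of EZH2 bins, 27 were lower at 3-fold, 11 of 28 with 20 peaks per bin, 20 after scaling, 22 in 500-kb bins, 16 of 19 with scores of 7 or more and 2 of 63 with equal list size; higher bins numbered 2, 1 and 12 under 3-fold, 20 peaks and scaling, 1 with scores of 7 or more and 12 with equal list size. Among these settings, the share of called bins over all chromosomes was computed only at equal list size. With scores of 7 or more, the KO/WT ratio of marked genes was 0.259 for H3K27me3 (0.755 as reported) and 0.277 for EZH2 (0.518 as reported).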

Other observations

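Of 11 long non-coding RNA genes measured, H3K27me3 marked 2 in KO and 5 in WT, and EZH2 2 in KO and 4 in WT, against shares over all protein-coding genes of 17.3% in KO and 19.6% in WT for H3K27me3 and 9.93% in KO and 15.1% in WT for EZH2. EZH2 cover was larger in KO in 1 of them, LINC00458, and larger in WT in 4. SOX21-AS1, which lies beside SOX21, had 0% of its window under EZH2 in KO and 9.32% in WT, but 7.27% under H3K27me3 in KO and 3.76% in WT, so the antibodies differed in direction at this gene. LINC00682 had 1.76% under EZH2 in KO and 7.76% in WT. MIR17HG, the host of a microRNA cluster active in growth, had 0% under H3K27me3 in KO and 3.89% in WT.

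The widest domains, made by joining peaks up to 3 kb apart, lay partly away from protein-coding genes. The EZH2 domain chr4:4867632-4875330, 3696 bp from MSX1, was covered by EZH2 over 46.4% in KO and 17.2% in WT. The EZH2 domain over GSX2, chr4:54096199-54106682, was covered over 10.1% in KO and 40.5% in WT. The MSX1 domain was chosen from the KO list and the GSX2 domain from the WT list, so their opposite directions go with that choice. The H3K27me3 domain chr4:69385903-69400741, 79424 bp from UGT2B4, was covered over 0% in KO and 38.8% in WT. The H3K27me3 domain chr13:94955930-94974384, 45451 bp from the transporter gene ABCC4, was covered over 25.6% in KO and 11.4% in WT, and the domain over PDLIM3, a protein of the muscle Z-disc, over 19% in KO and 19.6% in WT. Each domain was chosen for its width in 1 list, so its cover in that list is high by choice. For H3K27me3 that was the WT list near UGT2B4 and the KO list near ABCC4 and over PDLIM3.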
